A study of Homo sapiens with 8 samples.

Results

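The genes described here are 38 histone lysine methyltransferases and demethylases, taken by name from a table of 57773 gene features measured in C4-2 human prostate cancer cells. They comprise 22 methyltransferases (writers) and 16 demethylases (erasers), and all 38 symbols were found in the table. C4-2 is an established line that derives from LNCaP cells and grows in castrated hosts. Cells in T medium with serum were exposed for 24 h to 5 mM metformin (3 libraries), to 1 mM phenformin (2 libraries) or to phosphate buffered saline (PBS) vehicle (3 libraries). Metformin and phenformin are biguanides, and both are known inhibitors of mitochondrial respiratory complex I. The comparison with PBS asked which RNAs each biguanide altered. All libraries come from 1 cell line and 1 time point, and nothing states that the replicates were separate cultures, so the p-values rest on a library-to-library spread that may be technical only.

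Writers transfer methyl groups from S-adenosylmethionine to lysines of histones, through a SET domain in all families but DOT1L. Methylation of H3K4, H3K36 and H3K79 is mostly found at active genes, and methylation of H3K9, H3K27 and H4K20 is mostly found at repressed chromatin. Erasers of the KDM1 family remove methyl groups with a flavin cofactor, whereas those with a Jumonji C (JmjC) domain need iron, oxygen and 2-oxoglutarate. Several of these enzymes, EZH2 and KDM1A among them, are studied as drug targets in prostate cancer.

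The libraries held 14169196 to 15898491 mapped reads with metformin, 14611068 and 15876543 with phenformin and 13837455 to 44774670 with PBS, by the step sizes of the deposited values. PBS replicate 1 was the deepest, at 2.93 times the median of the other 7. It differed from the other PBS libraries by about the counting noise alone (0.932 and 1.02 times that noise), whereas PBS replicates 2 and 3 differed from each other by 1.32 times, so counts are also given without it. Whether PBS replicate 1 holds the reads of PBS replicates 2 and 3 was not stated, and if it did, the PBS group would have fewer than 3 independent libraries and the p-values would be too small. Of 17189 genes with at least 5 reads in PBS replicates 2 and 3 together, PBS replicate 1 had fewer than that sum in 609. Of 12531 genes with at least 50 such reads, it had fewer in 87. The 10 most abundant genes held 13.3 to 13.9% of the summed values with metformin, 7.16 and 7.24% with phenformin and 21.7 to 23.2% with PBS. Luminal prostate markers were present in all groups (KRT8 averaged 42.9, 42.1 and 40.1 RPKM with metformin, phenformin and PBS), the basal marker TP63 was at or near 0 and the leukocyte marker PTPRC was listed at 0. Of the stromal markers, COL1A2 and DCN were at or near 0, whereas VIM averaged 8.82, 4.99 and 3.97 RPKM and COL1A1 averaged 1.24, 2.67 and 1.25 RPKM with metformin, phenformin and PBS. RPKM divide the reads of a gene by its exon length and by the mapped reads of the library, and a log2 change is a difference of log2(RPKM + 0.1). Over all genes tested the median log2 change was -0.30 with metformin and -0.15 with phenformin, and "relative change" below is the log2 change of a gene minus this median. The part of the altered library composition in the changes was not tested. RPKM are shares of the RNA of each library, so fewer cells with a transcript and less of it per cell cannot be told apart, and neither can a change of total RNA per cell be seen.

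Most of these chromatin genes had higher RNA levels after biguanide exposure, in writers and erasers alike. With metformin, 25 of the 37 members tested rose and 9 fell (limma on all genes tested, adjusted p of at most 0.05), against 28.2% higher and 54.8% lower of 11730 genes tested. With phenformin, 24 of 37 rose and 6 fell, against 31.2% higher and 45.4% lower of 12172 genes. The RNA of all members but SUV39H1, which stayed under 1 RPKM in every library, passed the filter on low values. SUV420H2 passed it in the metformin comparison through its PBS libraries. Without PBS replicate 1, 25 rose and 7 fell with metformin (26.5% and 51.5% of 11835 genes), and 24 rose and 5 fell with phenformin (30% and 42.1% of 12013 genes). When each change was taken relative to the median of all genes, 27 members were higher and 6 lower with metformin, against 40.9% and 40.9% of all genes, and 25 higher and 5 lower with phenformin, against 38.4% and 38.4%. Tested against a 1.5-fold change instead of against 0, 11 members were higher and 2 lower with metformin (11.7% and 28% of all genes), and 7 higher and 3 lower with phenformin (10.8% and 19.7%). Both comparisons use the same PBS libraries, and the doses of the 2 compounds differ, so their values stand side by side without a test between them.

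**Figure D1:**
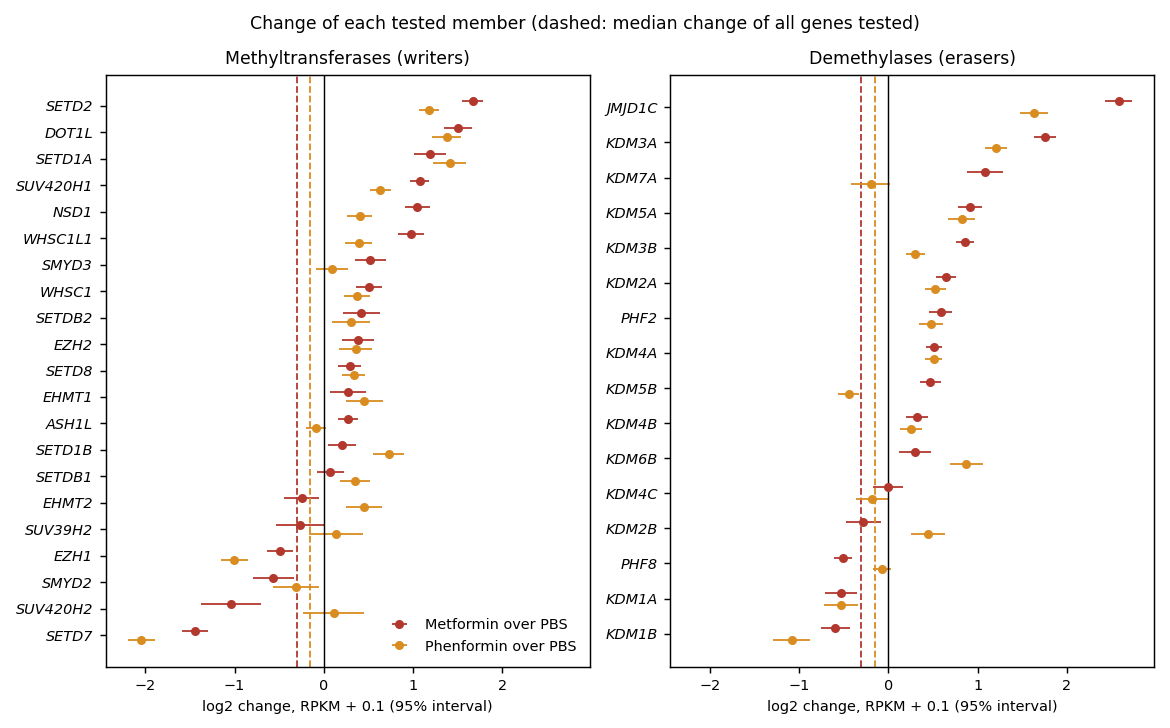
Log2 change of RPKM + 0.1 (x axis) with its 95% interval for the 37 members tested, metformin over PBS in red and phenformin over PBS in orange, writers on the left and erasers on the right. Dashed lines mark the median change of all genes (-0.30 and -0.15), and most members lie to the right of them, with JMJD1C farthest to the right at 2.58 and SETD7 farthest to the left at -2.05.

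Writers and erasers both had medians above 0. For the 21 writers tested, 14 rose and 5 fell with metformin at a median log2 change of 0.29 (relative change 0.59). With phenformin, 14 writers rose and 3 fell at a median of 0.36 (relative change 0.51). Of the 16 erasers, 11 rose and 4 fell with metformin at a median of 0.49 (relative change 0.79), and 10 rose and 3 fell with phenformin at a median of 0.37 (relative change 0.52).

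The summed RPKM of the erasers was 237, 237 and 237 with metformin, 195 and 195 with phenformin and 150, 151 and 150 with PBS. The writers summed to 196, 194 and 200 RPKM with metformin, 182 and 180 with phenformin and 141, 145 and 142 with PBS. Erasers over writers within a library, a ratio that no scaling between libraries can alter, was 1.21, 1.23 and 1.18 with metformin, 1.07 and 1.08 with phenformin and 1.06, 1.04 and 1.06 with PBS. The ratio was thus higher in each treated library than in every PBS library, but among these members JMJD1C decided its direction. Without JMJD1C it was 0.956, 0.928 and 0.936 with metformin, 0.924 and 0.934 with phenformin and 1.00, 0.983 and 0.997 with PBS, with the treated libraries below PBS. The demethylases KDM6A and KDM5C and the KMT2 genes, given below, are not among the members and are left out of these sums. A ratio that counts them was not tested, so the dependence on JMJD1C holds for the members alone.

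The KDM3 family, which removes methyl groups from mono- and dimethylated H3K9, held the largest increases among the erasers, those of JMJD1C and KDM3A. JMJD1C, a KDM3 relative whose own demethylase activity is debated, had 50.1, 57.5 and 49.5 RPKM with metformin, 27.2 and 26.6 RPKM with phenformin and 8.30, 8.70 and 8.92 RPKM with PBS. Every treated library lay well above all PBS libraries. JMJD1C rose 5.99-fold with metformin (log2 change 2.58 ± 0.066 SE; limma, adjusted p = 3.5e-08) and 3.09-fold with phenformin (1.63 ± 0.069; adjusted p = 1.6e-07). KDM3A, an H3K9 demethylase known for its part in sperm development, had 10.7, 10.4 and 10.2 RPKM with metformin, 7.20 and 6.97 RPKM with phenformin and 2.94, 3.05 and 3.07 RPKM with PBS. The groups did not overlap, and KDM3A rose 3.37-fold with metformin (limma, adjusted p = 7.8e-08) and 2.30-fold with phenformin (adjusted p = 2.1e-07). KDM3B, the third member of the family, had 21.8, 22.3 and 23.3 RPKM with metformin, 15.5 and 14.8 RPKM with phenformin and 12.3 RPKM in each PBS library. KDM3B also rose in both comparisons, by a smaller 1.82-fold with metformin (limma, adjusted p = 7.7e-07) and 1.23-fold with phenformin (adjusted p = 0.00038).

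The order of the family members differed between the groups. JMJD1C over KDM3B was 2.30, 2.58 and 2.12 with metformin, 1.75 and 1.80 with phenformin and 0.677, 0.705 and 0.725 with PBS, so that JMJD1C was the more abundant RNA in the treated libraries and KDM3B in the PBS libraries. KDM3A over KDM3B was 0.491, 0.467 and 0.436 with metformin, 0.463 and 0.472 with phenformin and 0.240, 0.247 and 0.250 with PBS.

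**Figure D2:**
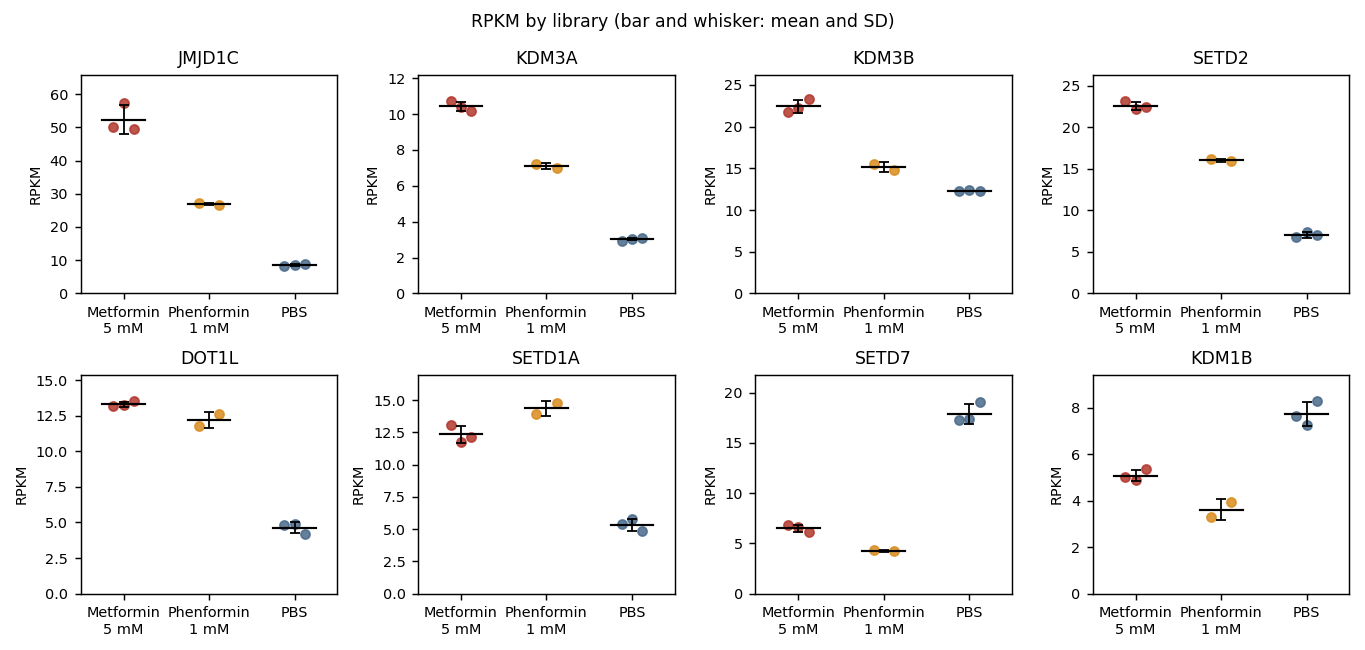
RPKM of 8 members (y axes from 0) in each library of the metformin 5 mM, phenformin 1 mM and PBS groups, with a bar and whisker for the mean and SD. JMJD1C, KDM3A, KDM3B, SETD2, DOT1L and SETD1A lie above PBS in every treated library, and SETD7 and KDM1B lie below.

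The promoter sequences of the 3 KDM3 genes, which all rose, and of SETD7, the member with the largest decrease, are shown for comparison. Each is the 250 bases before the most upstream listed start in RefSeq (GRCh38.p14), and capitals mark matches to CCAAT, to GGGCGG (the letters of a GC box) and to CACGTG (an E-box, which contains ACGTG), on either strand. The windows are chr10:63521891-63522140 (minus strand) for JMJD1C, chr2:86441121-86441370 (plus strand) for KDM3A, chr5:138352435-138352684 (plus strand) for KDM3B and chr4:139556220-139556469 (minus strand) for SETD7.
JMJD1C: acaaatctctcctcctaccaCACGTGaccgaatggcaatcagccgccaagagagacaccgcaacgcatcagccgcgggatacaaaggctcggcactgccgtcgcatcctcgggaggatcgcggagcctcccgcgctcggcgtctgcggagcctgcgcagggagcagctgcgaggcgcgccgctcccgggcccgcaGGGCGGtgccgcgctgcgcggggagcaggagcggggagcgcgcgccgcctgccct
KDM3A: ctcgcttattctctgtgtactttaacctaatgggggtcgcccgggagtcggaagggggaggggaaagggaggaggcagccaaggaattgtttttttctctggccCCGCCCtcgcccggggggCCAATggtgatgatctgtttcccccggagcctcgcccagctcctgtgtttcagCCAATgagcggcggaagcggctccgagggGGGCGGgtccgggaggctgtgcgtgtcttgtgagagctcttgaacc
KDM3B: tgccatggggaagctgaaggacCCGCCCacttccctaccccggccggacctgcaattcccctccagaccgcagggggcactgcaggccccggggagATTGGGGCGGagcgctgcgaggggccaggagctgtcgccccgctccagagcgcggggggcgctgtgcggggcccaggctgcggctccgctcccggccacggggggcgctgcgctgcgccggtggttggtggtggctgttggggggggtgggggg
SETD7: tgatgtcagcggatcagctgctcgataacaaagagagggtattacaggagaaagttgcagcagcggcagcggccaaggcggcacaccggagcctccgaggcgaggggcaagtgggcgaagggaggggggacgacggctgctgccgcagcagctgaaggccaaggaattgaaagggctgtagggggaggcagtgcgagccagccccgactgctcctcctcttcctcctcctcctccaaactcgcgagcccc
The JMJD1C window held CACGTG and 1 GGGCGG, that of KDM3A 2 CCAAT and 2 GGGCGG and that of KDM3B 1 CCAAT (read as ATTGG on this strand, running into a GC box) and 2 GGGCGG, whereas none of these letters stood in the SETD7 window. Entries were matched for 35 of 38 members, with 56 windows. GGGCGG was found in 41 of the 56 windows (73.2%), against 64.6% of 11958 windows of tested genes and 42.6% of all 35116 windows. CCAAT was found in 18 of them (32.1%), against 33.9% for tested genes and 32.0% for all, and ACGTG in 11 (19.6%), against 23.3% and 18.5%. CACGTG was found in 7 windows (12.5%), against 8.74% and 6.35%. TGACGTCA, the letters of a cyclic AMP response element, stood in 2 member windows (3.57%), against 2.66% and 1.65%, and TGACTCA, those of an AP-1 site, in 2 (3.57%), against 2.64% and 4.20%. TGATGCAA, read by ATF4 dimers, was in 0 member windows, 0.460% of those of tested genes and 0.772% of all. A match is a run of letters in the window, not evidence of binding.

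The KDM3 demethylases and the writers of their substrate mark did not move in parallel. The 6 H3K9 writers summed to 26.3, 24.1 and 27.4 RPKM with metformin, 34.6 and 32.4 with phenformin and 25.5, 26.0 and 24.2 with PBS, so the metformin and PBS libraries overlapped. KDM3 over H3K9 writers was 3.14, 3.74 and 3.03 with metformin, 1.44 and 1.49 with phenformin and 0.922, 0.925 and 1.00 with PBS. Without JMJD1C this ratio was 1.24, 1.35 and 1.22 with metformin, 0.657 and 0.672 with phenformin and 0.596, 0.591 and 0.635 with PBS, still highest with metformin and closer to PBS with phenformin.

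Among the H3K9 writers themselves the changes were small. EHMT2 (G9a), which dimethylates H3K9 together with EHMT1, had 7.92, 7.29 and 9.06 RPKM with metformin, 13.6 and 12.8 RPKM with phenformin and 10.0, 9.69 and 9.09 RPKM with PBS. It rose with phenformin (log2 change 0.45; limma, adjusted p = 0.0015), and its decrease with metformin (log2 change -0.25; adjusted p = 0.024) turned to 0.053 once centred on the median change. This decrease of EHMT2 missed the test without PBS replicate 1, PBS replicate 2, metformin replicate 1 or metformin replicate 2 (limma, adjusted p = 0.077, 0.060, 0.067 and 0.068). EHMT1 had 5.55, 5.10 and 5.90 RPKM with metformin, 6.11 and 6.42 RPKM with phenformin and 4.66, 4.91 and 4.09 RPKM with PBS, and rose in both comparisons (limma, adjusted p = 0.018 and 0.0017), the first of which was lost without PBS replicate 3 or metformin replicate 3 (adjusted p = 0.052 and 0.062) and with PBS replicate 1 reduced to its reads beyond the other PBS libraries (adjusted p = 0.057). EHMT1 over EHMT2 was 0.701, 0.700 and 0.651 with metformin, 0.449 and 0.503 with phenformin and 0.466, 0.507 and 0.450 with PBS, so that only the metformin ratios stood clear of PBS. SETDB2, a SETDB1 relative, rose in both comparisons (log2 change 0.42 and 0.31; limma, adjusted p = 0.0023 and 0.014), the second of which was lost without phenformin replicate 1 (adjusted p = 0.080). SETDB1, which trimethylates H3K9 at retroelements, rose with phenformin (0.35; limma, adjusted p = 0.0020) and had a log2 change of 0.07 with metformin (95% interval -0.08 to 0.22), or of 0.37 when centred on the median change (adjusted p = 0.00030).

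SUV39H1 and SUV39H2 trimethylate H3K9 at pericentromeric heterochromatin. SUV39H2 passed the test in neither comparison, though with phenformin it did on the TPM scale (log2 change 0.41; limma, adjusted p = 0.019). SUV39H2 had 2.21, 1.76 and 2.18 RPKM with metformin, 3.02 and 2.48 RPKM with phenformin and 2.36, 2.76 and 2.34 RPKM with PBS (95% intervals of the log2 change -0.53 to -0.00 and -0.17 to 0.44). SUV39H1 had 0.638, 0.411 and 0.754 RPKM with metformin, 0.972 and 0.630 RPKM with phenformin and 0.338, 0.300 and 0.350 RPKM with PBS. Its treated libraries lay above PBS, but the values rest on 14 to 52 reads per library and were not tested.

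Of the 5 writers of H3K36 methylation, 5 rose with metformin and 4 with phenformin. SETD2, the enzyme responsible for trimethylated H3K36 along transcribed genes, had 23.1, 22.2 and 22.5 RPKM with metformin, 16.2 and 15.9 RPKM with phenformin and 6.74, 7.37 and 7.01 RPKM with PBS. The groups were far apart, and SETD2 rose 3.18-fold with metformin (log2 change 1.67 ± 0.050 SE; limma, adjusted p = 7.7e-08) and 2.26-fold with phenformin (1.18 ± 0.051; adjusted p = 1.8e-07). NSD1, which deposits mono- and dimethylated H3K36, had 22.4, 25.4 and 23.9 RPKM with metformin, 15.5 and 14.9 RPKM with phenformin and 11.1, 12.0004 and 11.4 RPKM with PBS. NSD1 rose 2.07-fold with metformin (limma, adjusted p = 1.3e-06) and 1.32-fold with phenformin (adjusted p = 0.00037). WHSC1L1 (NSD3) had 7.65, 8.05 and 7.43 RPKM with metformin, 5.01 and 5.18 RPKM with phenformin and 3.65, 3.94 and 4.01 RPKM with PBS, a 1.97-fold and a 1.31-fold increase (limma, adjusted p = 2.3e-06 and 0.00053).

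The other H3K36 enzymes moved less. WHSC1 (NSD2) had 7.02, 6.92 and 7.81 RPKM with metformin, 6.48 and 6.68 RPKM with phenformin and 5.11, 5.07 and 5.03 RPKM with PBS, and rose in both comparisons (log2 change 0.51 and 0.37; limma, adjusted p = 0.00010 and 0.00072). ASH1L had 9.27, 9.52 and 9.45 RPKM with metformin, 7.49 and 7.13 RPKM with phenformin and 7.59, 7.83 and 7.91 RPKM with PBS. ASH1L rose with metformin (0.27; limma, adjusted p = 0.00073), and with phenformin its log2 change of -0.09 (95% interval -0.20 to 0.02) turned to 0.062 when centred on the median change. SETD2 over NSD1 was 1.04, 0.872 and 0.941 with metformin, 1.04 and 1.07 with phenformin and 0.606, 0.614 and 0.617 with PBS.

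The KDM2 enzymes remove H3K36 methylation. KDM2A had 19.3, 18.2 and 19.6 RPKM with metformin, 17.03 and 17.9 RPKM with phenformin and 12.1, 12.3 and 11.8 RPKM with PBS, and rose 1.57-fold and 1.44-fold (limma, adjusted p = 5.3e-06 and 1.7e-05). KDM2B, which also belongs to a variant PRC1 complex, had 1.44, 1.43 and 1.42 RPKM with metformin, 2.37 and 2.47 RPKM with phenformin and 1.79, 1.77 and 1.72 RPKM with PBS. It rose with phenformin (log2 change 0.44; limma, adjusted p = 0.0012), and its decrease with metformin (-0.28; adjusted p = 0.014) turned to 0.019 once centred on the median change and missed the test without PBS replicate 1 (adjusted p = 0.074). KDM2 over H3K36 writers was 0.299, 0.272 and 0.295 with metformin, 0.383 and 0.408 with phenformin and 0.406, 0.390 and 0.383 with PBS, below PBS with metformin and overlapping it with phenformin. With SETD2 left out the ratio was 0.448, 0.393 and 0.432 with metformin, 0.563 and 0.600 with phenformin and 0.505, 0.490 and 0.478 with PBS, so that the phenformin libraries then lay above PBS.

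For H3K4, the member writers SETD1A and SETD7 changed in opposite directions. The KMT2 genes are not among the members and are given below with the complexes. SETD1A, the catalytic subunit of a COMPASS complex that methylates H3K4 at promoters, had 13.1, 11.8 and 12.2 RPKM with metformin, 13.95 and 14.7 RPKM with phenformin and 5.40, 5.79 and 4.85 RPKM with PBS. SETD1A rose 2.29-fold with metformin (limma, adjusted p = 2.4e-06) and 2.66-fold with phenformin (adjusted p = 7.8e-07). SETD7, a monomethyltransferase of H3K4 that also methylates proteins other than histones, had 6.79, 6.64 and 6.10 RPKM with metformin, 4.30 and 4.21 RPKM with phenformin and 17.3, 17.3 and 19.0 RPKM with PBS. All treated libraries lay under all PBS libraries, and SETD7 fell to 0.368 of its PBS level with metformin (log2 change -1.44 ± 0.063 SE; limma, adjusted p = 3.6e-07) and to 0.242 with phenformin (-2.05 ± 0.067; adjusted p = 4.8e-08).

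SETD7 was therefore the most abundant of the 3 H3K4 writers among the members with PBS and the least abundant in the treated libraries. SETD1A over SETD7 was 1.93, 1.77 and 1.99 with metformin, 3.24 and 3.51 with phenformin and 0.313, 0.334 and 0.255 with PBS. SETD1B, the paralog of SETD1A, had 7.51, 6.76 and 7.16 RPKM with metformin, 9.76 and 10.8 RPKM with phenformin and 6.27, 6.50 and 5.75 RPKM with PBS. It rose 1.65-fold with phenformin (limma, adjusted p = 3.0e-05) and 1.15-fold with metformin (adjusted p = 0.020), the second of which was lost without PBS replicate 3 or metformin replicate 1 (adjusted p = 0.058 and 0.068) and with PBS replicate 1 reduced in the same way (adjusted p = 0.062).

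KDM5A and KDM5B, H3K4 demethylases of the KDM5 family, behaved differently from each other. KDM5A had 6.996, 7.05 and 7.22 RPKM with metformin, 6.96 and 6.31 RPKM with phenformin and 3.56, 3.65 and 3.92 RPKM with PBS, and rose 1.89-fold and 1.77-fold (limma, adjusted p = 2.5e-06 and 6.5e-06). KDM5B, known to be abundant in prostate cancer, had 14.9, 14.004 and 14.6 RPKM with metformin, 7.66 and 7.61 RPKM with phenformin and 10.2, 10.3 and 10.9 RPKM with PBS. KDM5B rose 1.38-fold with metformin (limma, adjusted p = 4.7e-05) and fell to 0.734 of its PBS level with phenformin (adjusted p = 5.7e-05). KDM5A over KDM5B was 0.470, 0.503 and 0.495 with metformin, 0.909 and 0.829 with phenformin and 0.350, 0.356 and 0.359 with PBS. This ratio leaves out KDM5C, which is not among the members and was more abundant than either in every library. KDM5C averaged 21.7, 19.9 and 13.8 RPKM with metformin, phenformin and PBS. It rose in both comparisons (limma, adjusted p = 4.0e-06 and 1.3e-05).

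Both flavin-dependent demethylases fell. KDM1A (LSD1), which removes mono- and dimethylated H3K4 within the CoREST complex, had 13.7, 12.1 and 15.2 RPKM with metformin, 13.6 and 13.7 RPKM with phenformin and 20.0, 19.7 and 19.6 RPKM with PBS. Its groups did not overlap, and KDM1A fell to 0.691 and 0.692 of its PBS level (limma, adjusted p = 0.00030 and 0.00035). KDM1B (LSD2) had 5.01, 4.87 and 5.36 RPKM with metformin, 3.29 and 3.93 RPKM with phenformin and 7.63, 7.27 and 8.30 RPKM with PBS, and fell to 0.662 with metformin (limma, adjusted p = 7.0e-05) and to 0.472 with phenformin (adjusted p = 7.9e-06). The summed KDM1 level was 18.7, 16.99 and 20.6 RPKM with metformin, 16.9 and 17.7 with phenformin and 27.6, 26.99 and 27.9 with PBS. KDM1 was the only one of the 7 eraser families in which no member rose in either comparison.

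**Figure D3:**
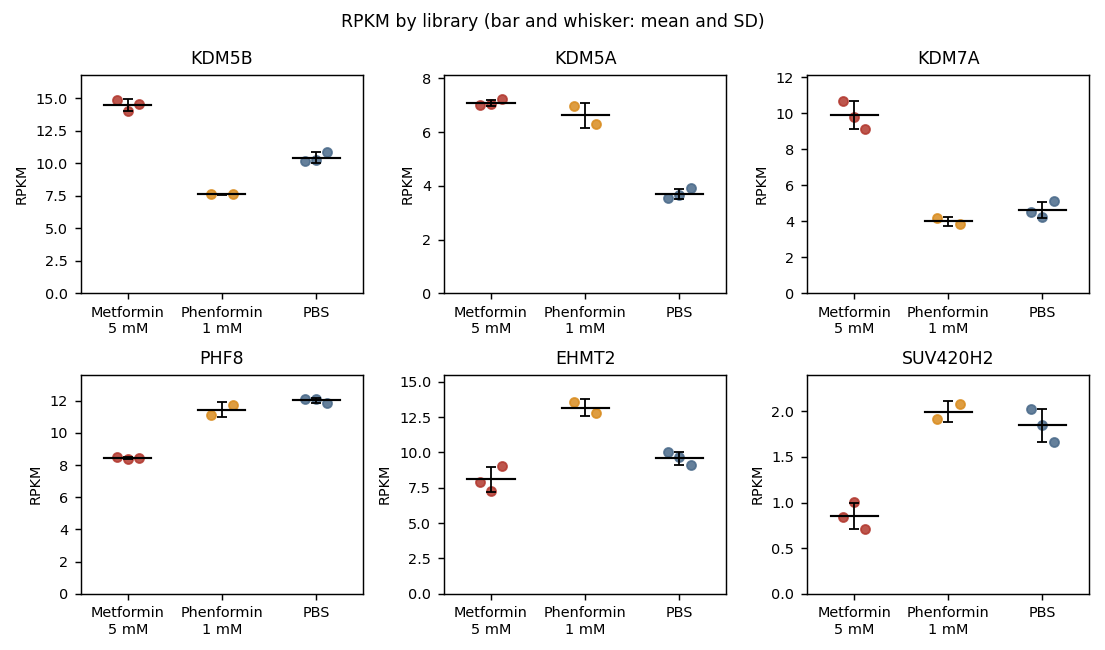
RPKM of 6 members (y axes from 0) in each library, with the mean and SD as bar and whisker. KDM5B lies above PBS with metformin and below with phenformin, KDM7A is raised with metformin (9.15 to 10.7 RPKM), and SUV420H2 and PHF8 lie below PBS with metformin.

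For H3K27, the 2 catalytic subunits of Polycomb repressive complex 2 (PRC2) moved apart. EZH2, the more active subunit and a known driver in castration-resistant prostate cancer, had 14.9, 15.1 and 16.5 RPKM with metformin, 15.6 and 15.0 RPKM with phenformin and 11.8, 10.9 and 13.1 RPKM with PBS. The treated libraries lay above PBS, and EZH2 rose 1.30-fold and 1.28-fold (limma, adjusted p = 0.0019 and 0.0031). EZH1 had 3.88, 4.33 and 3.98 RPKM with metformin, 2.81 and 2.83 RPKM with phenformin and 5.76, 5.83 and 5.68 RPKM with PBS, and fell to 0.710 with metformin (limma, adjusted p = 0.00011) and to 0.499 with phenformin (adjusted p = 1.7e-06). EZH2 over EZH1 was thus 3.85, 3.48 and 4.14 with metformin, 5.54 and 5.30 with phenformin and 2.04, 1.86 and 2.31 with PBS. KDM6B, a demethylase of trimethylated H3K27, had 18.4, 15.8 and 16.7 RPKM with metformin, 24.8 and 25.6 RPKM with phenformin and 14.1, 14.6 and 12.5 RPKM with PBS. KDM6B rose 1.23-fold with metformin (limma, adjusted p = 0.0069) and 1.83-fold with phenformin (adjusted p = 1.5e-05). KDM6B over the sum of EZH1 and EZH2 overlapped PBS with metformin (0.979, 0.814 and 0.815) and was higher with phenformin (1.35 and 1.44), against 0.807, 0.874 and 0.666 with PBS. This ratio leaves out the H3K27 demethylase KDM6A, which is given below with the COMPASS subunits. KDM6A was more abundant than KDM6B in every library and rose 1.92-fold with metformin and 2.64-fold with phenformin. The overlap with metformin therefore holds for KDM6B alone, and a ratio that counts KDM6A was not tested.

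**Figure D4:**
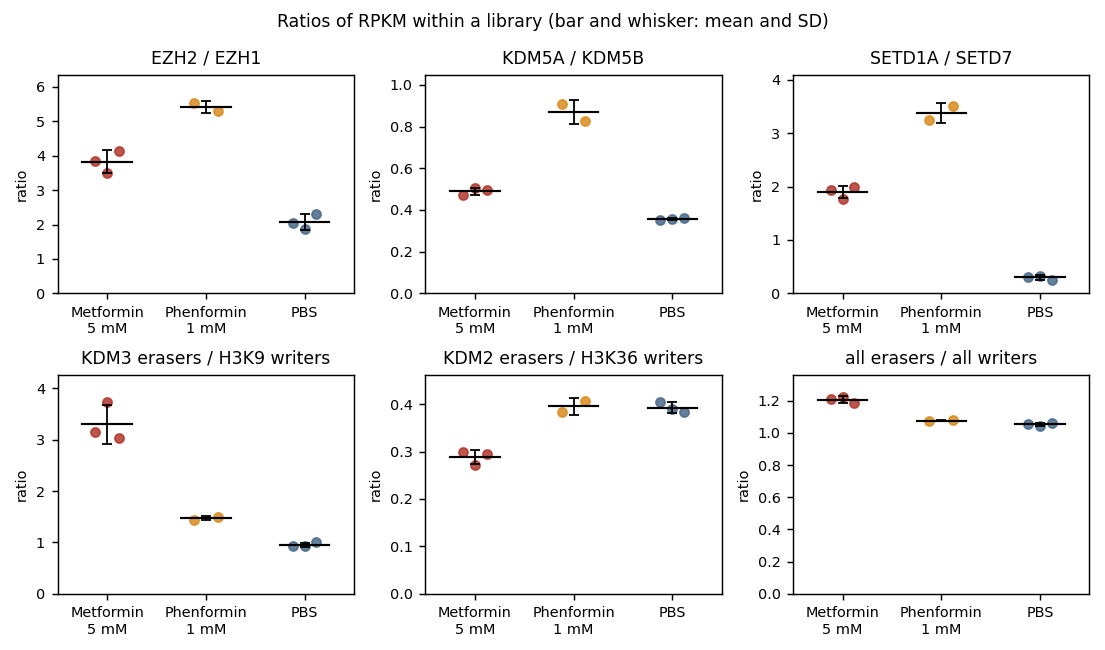
Ratios of RPKM within each library (y axes from 0) for 6 pairs of genes or classes, with the mean and SD as bar and whisker. EZH2 over EZH1, KDM5A over KDM5B and SETD1A over SETD7 lie above PBS in every treated library. The ratio of all erasers to all writers among the members does so only with JMJD1C counted.

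DOT1L, the only known H3K79 methyltransferase, had 13.2, 13.3 and 13.5 RPKM with metformin, 11.8 and 12.6 RPKM with phenformin and 4.81, 4.92 and 4.20 RPKM with PBS. Treated and PBS libraries were far apart, and DOT1L rose 2.83-fold with metformin (limma, adjusted p = 4.4e-07) and 2.60-fold with phenformin (adjusted p = 5.1e-07). Among the H4K20 writers, SUV420H1 (KMT5B) had 12.7, 12.9 and 12.9 RPKM with metformin, 9.83 and 9.03 RPKM with phenformin and 5.89, 6.18 and 6.03 RPKM with PBS, and rose 2.11-fold and 1.55-fold (limma, adjusted p = 3.3e-07 and 7.6e-06). Its paralog SUV420H2 (KMT5C) had 0.845, 1.00 and 0.709 RPKM with metformin, 1.91 and 2.08 RPKM with phenformin and 2.03, 1.85 and 1.66 RPKM with PBS. SUV420H2 fell with metformin (log2 change -1.04; limma, adjusted p = 0.00022) and overlapped PBS with phenformin (0.11, 95% interval -0.23 to 0.45). It passed the filter on low values in the metformin comparison through its PBS libraries, so the filter favoured this call. Its libraries held as few as 48 reads. The ratio of SUV420H1 to SUV420H2 was 15.1, 12.9 and 18.2 with metformin, 5.14 and 4.35 with phenformin and 2.90, 3.35 and 3.63 with PBS. SETD8 (KMT5A), which places the first methyl group on H4K20, had 20.9, 19.5 and 22.1 RPKM with metformin, 21.4 and 21.5 RPKM with phenformin and 16.9, 17.4 and 16.7 RPKM with PBS, and rose in both comparisons (log2 change 0.29 and 0.33; limma, adjusted p = 0.0015 and 0.00063).

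The KDM7 family, erasers with a PHD finger that reads H3K4 methylation, split with metformin. KDM7A had 10.7, 9.81 and 9.15 RPKM with metformin, 4.19 and 3.83 RPKM with phenformin and 4.49, 4.26 and 5.14 RPKM with PBS. KDM7A rose 2.11-fold with metformin (limma, adjusted p = 9.0e-06). With phenformin both libraries lay below PBS, at a log2 change of -0.20 (95% interval -0.42 to 0.02) that was 0.061 on the TPM scale and passed without PBS replicate 2 (-0.26; adjusted p = 0.048). PHF8 had 8.495, 8.39 and 8.42 RPKM with metformin, 11.1 and 11.8 RPKM with phenformin and 12.1, 12.1 and 11.8 RPKM with PBS. PHF8 fell to 0.704 with metformin (limma, adjusted p = 1.2e-05), and with phenformin its log2 change was -0.07 (95% interval -0.18 to 0.03), or 0.079 when centred on the median change. The ratio of KDM7A to PHF8 was 1.26, 1.17 and 1.09 with metformin, 0.377 and 0.326 with phenformin and 0.371, 0.351 and 0.434 with PBS. PHF2 had 14.3, 14.4 and 14.4 RPKM with metformin, 13.1 and 13.6 RPKM with phenformin and 9.77, 9.99 and 8.89 RPKM with PBS, and rose in both comparisons (log2 change 0.59 and 0.48; limma, adjusted p = 2.2e-05 and 7.3e-05).

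The KDM4 family acts on trimethylated H3K9 and H3K36. KDM4A rose with both compounds, with 29.1 to 29.8 RPKM under metformin, 28.8 and 30.3 under phenformin and 20.4 to 21.1 with PBS (log2 change 0.51 in each). In GENCODE 29, 40.2% of the exon bases of KDM4A are shared with the gene AL451062.3 on the same strand, so its reads may be split. KDM4B rose by 0.32 and 0.25 on the log2 scale. KDM4C passed in neither comparison, with 3.20, 3.10 and 3.18 RPKM under metformin, 2.92 and 2.65 under phenformin and 3.05, 3.05 and 3.42 with PBS (log2 change -0.00 and -0.18, of which the first turned to 0.30 and the second to 0.076 under other scalings). KDM4C was called higher with metformin on the TPM scale (limma, adjusted p = 0.015) and centred on the median change (adjusted p = 0.0063), and lower with phenformin without the trend (adjusted p = 0.047) and with limma-voom (adjusted p = 0.043).

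Of the SMYD enzymes, which also methylate cytoplasmic proteins, SMYD3 had 4.37 to 4.88 RPKM with metformin, 3.34 and 3.46 with phenformin and 2.96 to 3.34 with PBS. SMYD3 rose with metformin (log2 change 0.52; limma, adjusted p = 0.00024) and had a change of 0.10 with phenformin (95% interval -0.08 to 0.27), or 0.25 when centred on the median change (adjusted p = 0.0097). SMYD2 had 1.44 to 1.73 RPKM with metformin, 1.74 and 1.97 with phenformin and 2.17 to 2.41 with PBS. It fell with metformin (-0.56; limma, adjusted p = 0.00094), with an adjusted p of 0.057 once centred on the median change, and its decrease with phenformin (-0.31; adjusted p = 0.032) was lost without PBS replicate 1, PBS replicate 2 or phenformin replicate 2 (adjusted p = 0.090, 0.084 and 0.19) and under every other scaling tried. The ratio of SMYD3 to SMYD2 was 3.19, 2.53 and 3.34 with metformin, 1.69 and 1.99 with phenformin and 1.36, 1.38 and 1.36 with PBS.

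Genes of the complexes in which these enzymes act were counted from lists, against the same 28.2% higher and 54.8% lower of all genes with metformin and 31.2% and 45.4% with phenformin. Of the 4 listed genes of the MLL (KMT2) family, 4 rose with metformin and 3 with phenformin. Those that rose in both comparisons included KMT2A (13.2, 8.92 and 6.25 RPKM on average with metformin, phenformin and PBS) and KMT2E (16.2, 14.6 and 7.79). Of 11 COMPASS subunits, 8 rose and 2 fell with metformin, and 7 rose and 0 fell with phenformin. KDM6A, an H3K27 demethylase within the MLL3 and MLL4 complexes, had 73.5, 69.1 and 70.9 RPKM with metformin, 97.5 and 98.5 RPKM with phenformin and 36.3, 37.3 and 37.5 RPKM with PBS, and the CFP1 gene CXXC1 averaged 9.97, 19.9 and 8.16 RPKM.

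The Polycomb genes were mixed. Of 8 PRC2 partners, 4 rose and 4 fell with metformin, and 3 rose and 4 fell with phenformin. AEBP2 averaged 14.9, 11.3 and 7.17 RPKM and MTF2 averaged 5.11, 7.04 and 3.67 RPKM with metformin, phenformin and PBS. The 4 that fell were EED, RBBP4, RBBP7 and JARID2 in both comparisons. In this order they fell to 0.676, 0.555, 0.572 and 0.407 of their PBS level with metformin. With phenformin they fell to 0.579, 0.515, 0.555 and 0.679. Of 18 PRC1 subunits, 9 rose and 6 fell with metformin, and 9 rose and 4 fell with phenformin. The chromodomain subunit CBX7 averaged 0.268 ± 0.030, 0.395 ± 0.014 and 2.40 ± 0.094 RPKM with metformin, phenformin and PBS (SD), and passed the filter on low values only through its PBS libraries.

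The partners of KDM1A in the CoREST complex were mixed as well, with 4 of 7 higher and 3 lower with metformin and 5 higher and 1 lower with phenformin. The scaffold RCOR1 averaged 15.8, 11.4 and 8.33 RPKM and the deacetylase HDAC2 averaged 4.47, 3.61 and 7.37 RPKM with metformin, phenformin and PBS. Of the HP1 proteins and other H3K9 readers, 3 of 7 rose and 3 fell with metformin, and 4 of 8 rose and 2 fell with phenformin. The SETDB1 cofactor ATF7IP averaged 6.66, 5.48 and 2.80 RPKM with metformin, phenformin and PBS, and UHRF1 averaged 0.446, 1.54 and 0.860 RPKM. UHRF1, counted among the 4 that rose with phenformin, passed the filter on low values only through its phenformin libraries. The filter thus favoured its call, and it was not tested with metformin.

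Genes of the cofactor supply were counted against the same shares of lower genes (54.8% with metformin and 45.4% with phenformin). In the methyl donor cycle, 1 of 10 genes rose and 7 fell with metformin, and 0 rose and 7 fell with phenformin. AHCYL1, a relative of the hydrolase of S-adenosylhomocysteine, averaged 15.3, 10.8 and 27.5 RPKM and methionine synthase MTR averaged 3.04, 4.21 and 7.97 RPKM with metformin, phenformin and PBS. MAT2A, which makes S-adenosylmethionine and was singled out after its values were seen, averaged 29.4 ± 1.6, 31.3 ± 0.83 and 64.5 ± 0.31 RPKM and fell in both comparisons (limma, adjusted p = 3.3e-07 in each). Of 11 genes of 2-oxoglutarate and FAD supply, 1 rose and 8 fell with metformin, and 1 rose and 7 fell with phenformin. The median relative changes of these lists were -0.20 and -0.16 with metformin and -0.41 and -0.10 with phenformin. D2HGDH, which oxidises D-2-hydroxyglutarate, averaged 1.51, 2.45 and 5.32 RPKM and FAD synthase FLAD1 averaged 3.12, 4.57 and 7.69 RPKM with metformin, phenformin and PBS.

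The list of protein arginine methyltransferases, which use the same methyl donor, held 7 tested enzymes and the PRMT5 partner WDR77. Of these 8 genes, 0 were higher in either comparison, with 7 lower with metformin and 6 with phenformin. Over all genes tested, 28.2% were higher and 54.8% lower with metformin, and 31.2% and 45.4% with phenformin. The median relative change of the list was -0.25 with metformin and -0.12 with phenformin. PRMT2 averaged 3.02, 2.30 and 4.57 RPKM and WDR77 averaged 9.85, 12.7 and 21.0 RPKM with metformin, phenformin and PBS. Against the same shares, 6 of 14 other JmjC and SET domain genes rose and 5 fell with metformin, and 7 rose and 3 fell with phenformin. Their median relative change was 0.30 with metformin and 0.25 with phenformin. PRDM4 averaged 38.2 ± 1.3, 19.4 ± 0.44 and 5.35 ± 0.16 RPKM, and JMJD6, a lysyl hydroxylase, averaged 16.7 ± 2.0, 10.4 ± 0.053 and 4.04 ± 0.26 RPKM with metformin, phenformin and PBS (SD, n = 3, 2 and 3). Both rose in both comparisons (limma, adjusted p of 1.1e-08 and 1.8e-08 for PRDM4 and of 4.2e-07 and 2.7e-06 for JMJD6).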

How the data were processed

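Polyadenylated RNA of C4-2 cells was made into TruSeq libraries and sequenced on an Illumina HiSeq. With CLC Genomics Workbench 7.0 the authors aligned the reads to a genome of build GRCh37.p13 (named in the submitters' notes) and deposited RPKM for 57773 features. Another scaling between libraries, the annotation release, the use of strand and the treatment of shared reads were not stated. RPKM for antisense or overlapping genes may therefore hold reads of either. The RPKM steps gave whole reads (within 0.01) for 25529 of 25529 features above 0, from which library depths were derived. Depths of all libraries could share a common factor, which the steps cannot show.

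Groups followed the sample labels. The metformin contrast used 6 libraries and genes that reached 1 RPKM in 3 or more of them, and the phenformin contrast used all 8 libraries and genes that reached 1 RPKM in 2 or more, both with limma 3.58.1 in R 4.3.3 (lmFit, eBayes with trend) on log2(RPKM + 0.1), two-sided, and p-values were adjusted over every gene tested by the Benjamini-Hochberg method, with a limit of 0.05. The pseudocount understates the changes of low genes. On simulated data, 90.9% of genes changed 1.5-fold were called for metformin and 68.0% for phenformin, and 5.47% and 6.86% of the calls were false. The simulation changed few genes, equally up and down, with an assumed dispersion and independent PBS libraries. In the measured data most genes were called and the median shifted, so these rates may not hold for the real calls. The fewest reads of a tested member were 48 per library. Promoter windows came from RefSeq (GRCh38.p14) and overlaps between genes from GENCODE 29. Python 3.11.15, numpy 2.4.6, pandas 2.3.3 and matplotlib 3.10.9 were also used.

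The members and gene lists were chosen with earlier results of these data known. Members with the 14 largest relative changes whose groups did not overlap were given with every library, together with EZH2, KDM1A and members of the same classes. From each list up to 2 genes with the largest change past the test were named. MAT2A, KDM5C and the 4 PRC2 partners that fell were named besides, after their values were seen. Some genes are not reported here. Alternatives covered the pseudocount, the filter, the scaling between libraries, the trend, a test against a 1.5-fold change, limma-voom on recovered reads, the libraries fitted, a replicate block, PBS replicate 1 less the reads of PBS replicates 2 and 3, and each library left out.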

Additional observations from a re-analysis of the deposited data

How the results depend on the processing

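Over all alternatives the counts of members that rose or fell stayed within 1.5 times, except when tested against a 1.5-fold change. With that test 11 members were higher and 2 lower with metformin (writers 6 and 2, erasers 5 and 0). With phenformin 7 were higher and 3 lower (3 writers and 4 erasers higher, 1 eraser lower). Centred on the median change, an alternative chosen after seeing the data, 3 writers were lower with metformin. With single libraries left out, 23 to 25 members were higher and 7 to 9 lower with metformin, and 23 to 24 higher and 5 to 6 lower with phenformin. Of 37 members, 29 kept their direction and call in each comparison under every alternative but the 1.5-fold test.

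The medians moved mainly with scaling. For metformin, the median log2 change of writers was 0.33 with no filter, 0.48 median-centred, 0.56 on the TPM scale, 0.59 centred on the median change and 0.27 to 0.34 with single libraries left out. That of erasers was 0.46 with a pseudocount of 1, 0.68 median-centred, 0.76 on the TPM scale, 0.79 centred on the median change and 0.52 with PBS replicate 1 reduced. For phenformin, writers had 0.32 with a pseudocount of 1, 0.46 median-centred, 0.63 on the TPM scale and 0.51 centred on the median change. Erasers had 0.38 with a pseudocount of 0.01, 0.30 with 1, 0.46 median-centred, 0.64 on the TPM scale and 0.52 centred on the median change.

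Directions turned for members close to 0. With metformin, EHMT2 was at 0.015 on the TPM scale and 0.053 centred on the median change, SUV39H2 at 0.034 and KDM2B at 0.019 centred on the median change. KDM4C was at 0.18 median-centred, 0.26 on the TPM scale, 0.0045 with limma-voom, 0.30 centred on the median change, 0.053 with PBS replicate 1 reduced and -0.031 to 0.049 with single libraries left out. With phenformin, ASH1L was at 0.0063 median-centred, 0.18 on the TPM scale and 0.062 centred on the median change, PHF8 at 0.022, 0.19 and 0.079 under the same scalings, and KDM4C at 0.076 and KDM7A at 0.061 on the TPM scale.

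Deviations of same-numbered libraries from their group means had correlations of -0.062 to 0.034 for metformin and -0.075 to -0.003 for phenformin. Within groups of 2 or 3 libraries such deviations must sum to 0, so these values cannot decide whether replicate numbers pair the samples. A replicate block left the counts at 25 and 9 with metformin and 24 and 6 with phenformin, and moved the phenformin median of writers to 0.39. Where directions or medians moved, the cause was not tested beyond the scaling itself. With groups of 2 and 3 libraries, no library could be tested as an outlier.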
